A study of Mesocricetus auratus with 8 samples.

Results

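The genes described here are 37 genes of interferon signalling, of the NF-kappaB pathway and of cytokine and chemokine production, followed in cultured Syrian hamster satellite cells (SCs), the stem cells of skeletal muscle, before and after 24 h at 4°C. They were taken from the deposited table by gene symbol. Of the 37 symbols, 34 have a row among the 31581 entries of the table and 33 have values, beside 17590 genes with values in all. Ifit3 has a row without values, and no row carries the symbols Ccl2, Ccl7 or Mx2, so these 4 genes are not analysed here. The question was whether exposure to cold, which a hibernator's cells meet during torpor, was accompanied by a change in these inflammatory and antiviral genes.

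The control group is 4 libraries (numbered 1 to 4) from wild-type SCs kept at 37°C, and the cold group is 4 libraries (numbered 1 to 4) from wild-type SCs moved from 37°C to 4°C for 24 h. Both groups came from hindlimb muscle of sexually mature male hamsters. The SCs were enriched by preplating on plastic, which removes fibroblasts, rather than by sorting, and were grown on Matrigel in a serum-rich growth medium with basic fibroblast growth factor, with 100 mM HEPES added after 48 h. The medium was not changed during the cold. The sample titles place all control libraries on day 3 of culture, whereas their treatment labels read 3, 4, 5 and 6 days, and no library held at 37°C for as long as the cold libraries were cultured was analysed here, so temperature and the extra 24 h cannot be told apart. The study describes the libraries of a group as biological replicates. What a number shared by a control and a cold library marks is not stated, and neither is whether animals were pooled.

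As background, type I interferons are sensed by the Ifnar1 and Ifnar2 receptor chains and type II interferon by Ifngr1 and its partner. JAK kinases then activate STAT proteins, which together with interferon regulatory factors (IRFs) switch on antiviral effector genes such as Isg15 and the Ifit family. NF-kappaB is a family of paired transcription factors, Rela, Relb, Nfkb1 and Nfkb2 among them, that is held inactive by inhibitors such as Nfkbia and drives cytokine, chemokine and adhesion genes. In injured muscle these signals recruit and instruct macrophages, and SCs both send and receive them.

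The libraries held between 16530747 and 18533801 read counts each. Counts were tested with edgeR's quasi-likelihood test over the 12506 genes that passed a filter on low counts, and a gene was called where its Benjamini-Hochberg adjusted p was under 0.05. Because libraries that carry the same number deviated together from the mean of their group, each value is also given from the same test with the replicate number as a block, named the blocked test. Levels are given as TPM, relative transcript abundances on a scale that corrects for gene length. The first principal component, with 58.2% of the variance over the genes tested, set replicates 1 and 2 apart from the other two in each group, and the second, with 17.7%, parted cold from control. The SC and myoblast markers were present in all libraries, with a summed level of 2747 to 3668 TPM over 13 genes in control and 2453 to 3105 TPM in cold libraries. In the blocked test 5 of these 13 genes fell (Myog, Itga7, Cdh15, Chrna1 and Myod1) and Megf10 rose, beside 5.33% of all genes called in that test, and 0 were called without the block. Myod1 and Megf10 lost their call when single pairs were left out, with adjusted p-values of up to 0.133 and 0.194 in the blocked edgeR test. The part of these 13 markers in the members' values was not tested. By immunostaining of protein, the study found nearly all cells of its hamster SC cultures positive for Pax7 or MyoD. Fibroblast markers were also present in the RNA, with a sum of 1255 to 1807 TPM at 37°C and 1238 to 1754 TPM at 4°C over the 10 of 12 markers with values. Endothelial markers summed to between 3.24 and 5.70 TPM over 10 genes. Of 20 macrophage and monocyte markers, 16 had values and 9 of these stayed at 3 counts or fewer in every library.

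No member was called in either direction. Of the 33 genes with values, 29 passed the filter, and 0 of 29 had an adjusted p under 0.05 with edgeR, where 9 of all 12506 genes tested (0.072%) did, or in the blocked test, where 667 (5.33%) did, 1.26% higher and 4.07% lower in the cold. DESeq2 also called 0 of 29, both without the block, against 1.14% of all genes, and with it, against 2.85%. The smallest adjusted p among the members was 0.732 with edgeR (Irf2) and 0.123 in the blocked test (Ptgs2). At an unadjusted p under 0.05, 1 of 29 members (3.45%) was found with edgeR, Irf2 with a positive fold change, against 6.7% of all genes tested (2.57% in that direction), and 5 of 29 (17.2%) in the blocked test, against 18.2%. DESeq2 found 0 of 29 at that level without the block, against 5.9%, and 1 of 29 with it, Ptgs2 with a positive fold change, against 9.36% (3.49% in that direction). The 5 members of the blocked test were Irf2, Eif2ak2, Nfkbia and Ptgs2, with positive fold changes, beside 8.48% of all genes in that direction, and B2m, with a negative one, beside 9.76%. No member was past the study's threshold for differentially expressed genes, an adjusted p under 0.05 with at least a 2-fold change, which 0.04% of all genes passed with edgeR and 0.848% in the blocked test. The study, with its own test, reports more such genes than edgeR gave here and fewer than the blocked test, all lower in the cold.

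**Figure D1:**
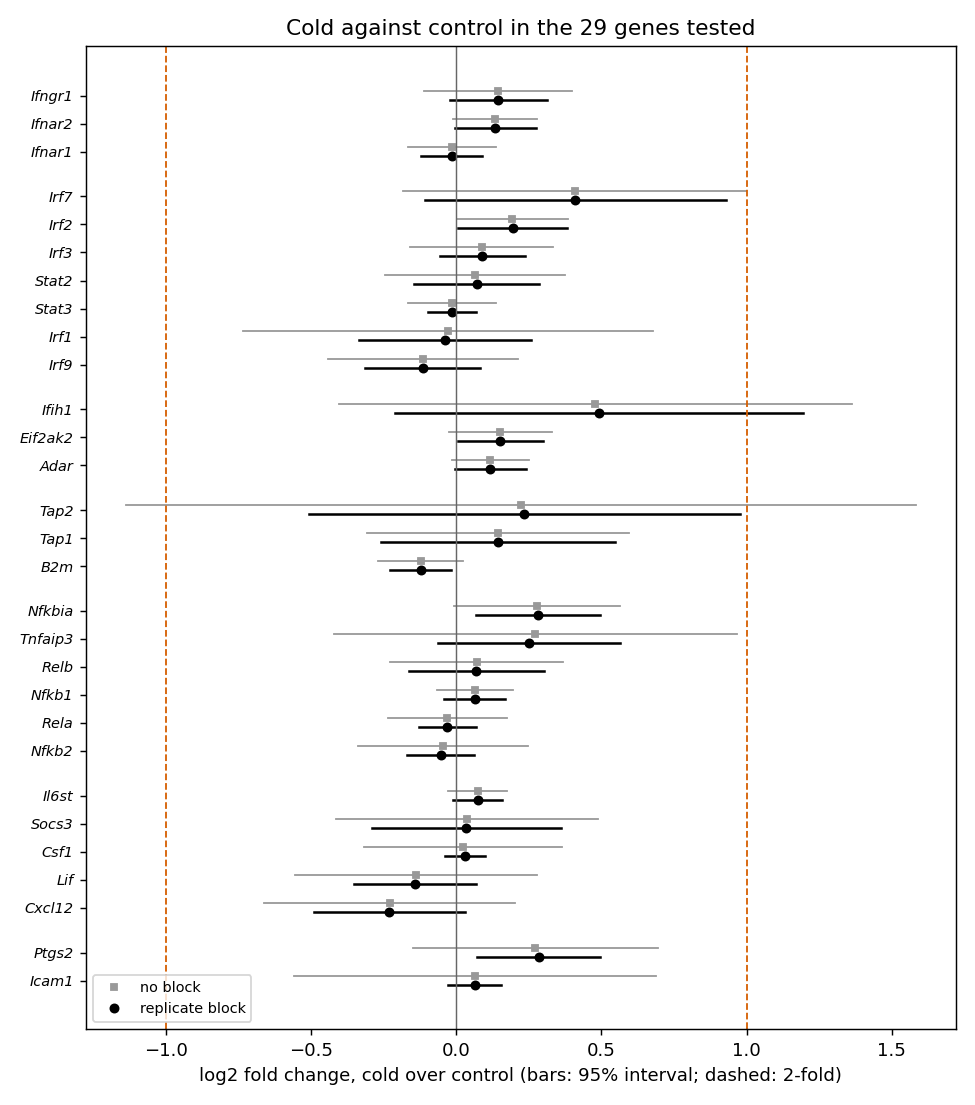
Log2 fold change of cold over control (x axis) for the 29 genes tested, grouped by role, from edgeR without (grey squares) and with (black circles) the replicate number as a block, each with its 95% interval. The black intervals lie inside the dashed 2-fold lines for 28 of 29 genes, Ifih1 being the exception, and the largest black value is 0.49.

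The size of change that these data leave room for was small for most members. In the blocked test the 95% interval of the fold change lay within a 2-fold change in either direction for 28 of the 29 genes and within a 1.5-fold change for 26. Without the block these counts were 27 and 20. Ifih1 was the exception in the blocked test, with an interval of 0.865-fold to 2.29-fold, and Ifih1 and Tap2 were the exceptions without it. These intervals are for single genes and are not adjusted for the number of genes. The median log2 fold change of the 29 members was 0.071 in both tests, beside 0.0071 over all genes tested with edgeR and 0.0075 in the blocked test. Log2 fold changes were positive for 20 of the 29 members (69.0%) and negative for 9 in both tests, beside 52.9% positive over all genes with edgeR and 53.1% in the blocked test.

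The levels of the members differed far more between genes than between conditions. Csf1 was at 379 TPM averaged over the 8 libraries, above 97.9% of the genes with values, while Dhx58 was at 0.0338 TPM. Signalling components lay mostly in between, with a median of 11.2 TPM for the receptors, 7.29 TPM for the STAT and IRF factors and 16.4 TPM for the NF-kappaB genes, against 0.118 TPM for the 6 antiviral effectors and sensors with values. Members are ordered below from receptors to the genes that these pathways drive.

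**Figure D2:**
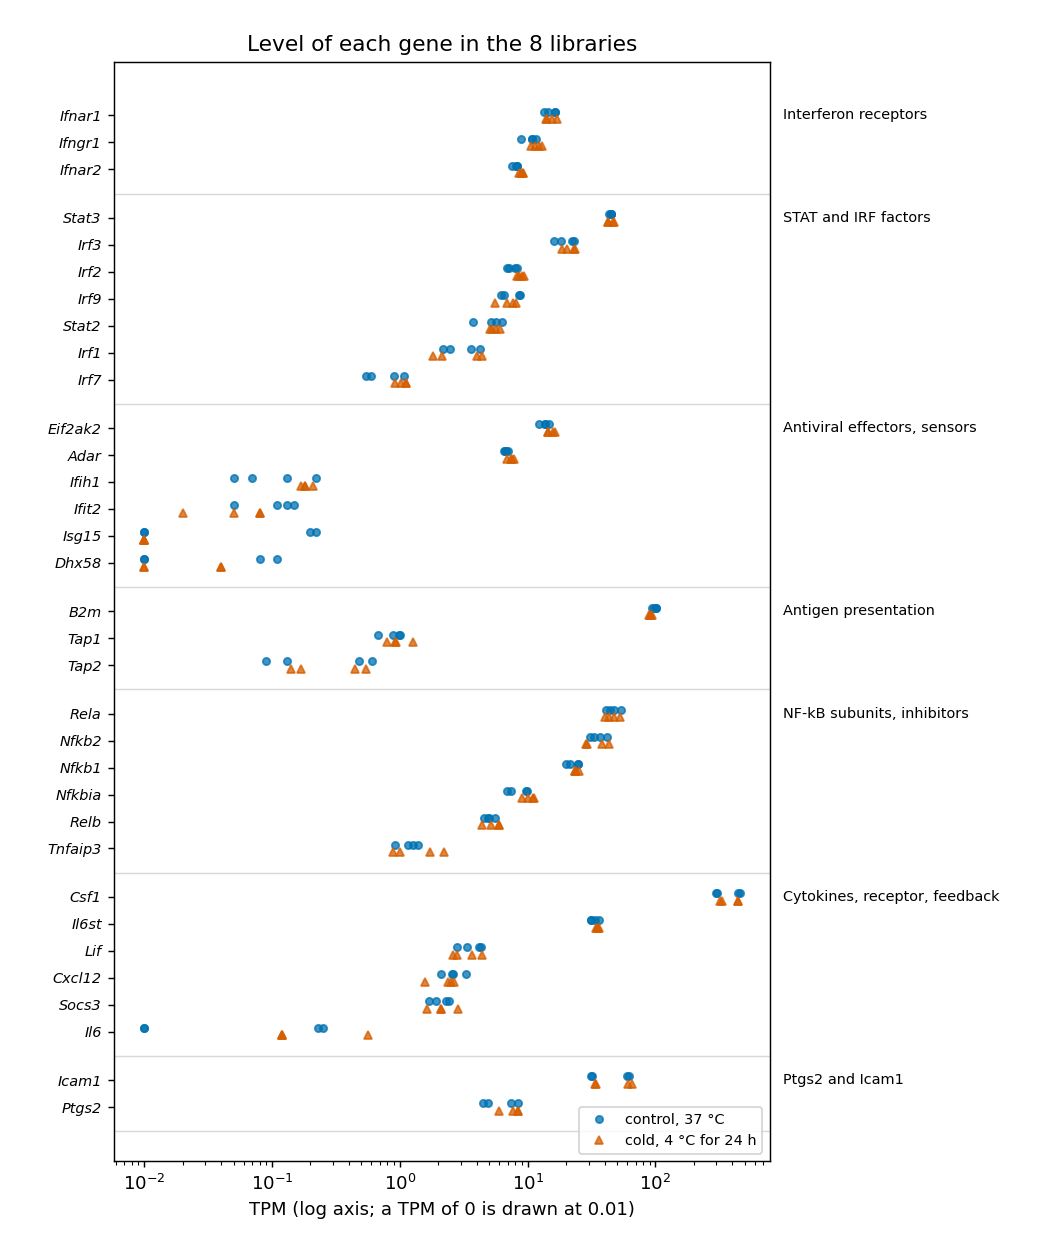
TPM of each of the 33 genes with values (log x axis, a TPM of 0 drawn at 0.01) in the 4 control (blue circles) and 4 cold (orange triangles) libraries, grouped by role. Blue and orange symbols overlap in nearly every row, and the rows of Ifih1, Ifit2, Isg15 and Dhx58 lie below 1 TPM while Csf1 lies at 297 or more.

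All 3 interferon receptor genes were expressed. Ifnar1, one chain of the type I interferon receptor, was at 14.5, 13.5, 16.3 and 16.3 TPM in control replicates 1 to 4 and at 14.03, 14.2, 16.9 and 15.6 TPM in the cold libraries. The groups overlapped throughout, and the log2 fold change was −0.014 (standard error, SE, 0.050, adjusted p = 0.924 in the blocked edgeR test). Ifnar2, the partner chain, was at 8.24, 7.55, 8.15 and 8.28 TPM in control and at 9.18, 8.56, 8.95 and 9.17 TPM in cold libraries. Every cold value lay above every control value, for which the exact permutation test (two-sided, 70 arrangements of 4 against 4 libraries) gives p = 0.0286. That is the smallest p this test allows, and the test takes no account of the replicate number. In edgeR the log2 fold change of Ifnar2 was 0.14 (SE 0.064, adjusted p = 0.797), and in the blocked test 0.14 (SE 0.066, adjusted p = 0.289). Ifngr1, a chain of the interferon gamma receptor, averaged 10.6 ± 1.12 TPM at 37°C and 11.8 ± 0.986 TPM at 4°C (SD, n = 4 each), and its groups overlapped.

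Among the STAT and IRF factors, Stat3, which carries signals of the interleukin 6 family, was the most abundant. It was at 45.3, 45.3, 43.0 and 44.6 TPM in control and at 47.8, 46.3, 42.5 and 42.3 TPM in cold libraries. The groups overlapped, with a log2 fold change of −0.014 (blocked adjusted p = 0.899 with edgeR). Stat2 and Irf9, which form the complex that acts downstream of the type I receptor, averaged 5.23 ± 1.07 and 7.51 ± 1.29 TPM at 37°C and 5.52 ± 0.441 and 7.07 ± 1.14 TPM at 4°C (SD, n = 4 each). Both differences were smaller than the spread between replicates. Irf3, a factor activated by viral nucleic acid sensors, averaged 19.9 ± 3.30 TPM at 37°C and 21.4 ± 2.33 TPM at 4°C (SD, n = 4 each), with a cold value above the control value in all 4 pairs of the same number.

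Irf2, a factor known for opposing Irf1 on shared target genes, was at 7.13, 6.91, 7.94 and 8.26 TPM in control and at 8.57, 8.28, 8.99 and 9.29 TPM in cold libraries. Each of the 4 pairs had the higher value in the cold, and the groups did not overlap (exact two-sided permutation p = 0.0286). Its log2 fold change was 0.19 (SE 0.085, adjusted p = 0.732) with edgeR and 0.19 (SE 0.089, adjusted p = 0.254) in the blocked test, so it was not called. Ifnar2 and Irf2 were the only 2 of the 29 members (6.9%) whose groups did not overlap, beside 4.68% of all genes tested, and both were higher in the cold, beside 2.27% of all genes in that direction.

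Irf1, a factor induced by interferon gamma and NF-kappaB, was at 2.18, 2.46, 3.62 and 4.25 TPM in control and at 1.83, 2.14, 4.00 and 4.36 TPM in cold libraries. Replicates 1 and 2 were low and replicates 3 and 4 high in both groups, and the log2 fold change was −0.038 (SE 0.14 in the blocked test). Irf7, which amplifies the type I interferon response, was at 1.07, 0.540, 0.590 and 0.900 TPM in control and at 1.11, 0.920, 1.03 and 1.12 TPM in cold libraries. It was higher in the cold in 4 of 4 pairs, with the second largest log2 fold change of the members in the blocked test, 0.41 (SE 0.25, blocked adjusted p = 0.410 with edgeR). In edgeR without the block this was 0.62 without control replicate 1 and 0.27 without control replicate 2. These Irf7 values rest on 11 to 23 counts per library.

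Of the 6 antiviral effectors and sensors with values, only Eif2ak2 and Adar exceeded 1 TPM. Eif2ak2, the double-stranded RNA kinase PKR that halts translation, was at 12.3, 13.7, 13.7 and 14.8 TPM in control and at 14.4, 16.4, 14.5 and 15.7 TPM in cold libraries. The cold value was the higher in 4 of 4 pairs with overlapping groups, and the log2 fold change was 0.15 (SE 0.070, adjusted p = 0.255 in the blocked edgeR test). Adar, which edits adenosines in double-stranded RNA, averaged 6.76 ± 0.226 TPM at 37°C and 7.43 ± 0.372 TPM at 4°C (SD, n = 4 each). It was also higher in 4 of 4 pairs, with a log2 fold change of 0.12 and a blocked adjusted p of 0.294 with edgeR.

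The other 4 genes of this role were at the edge of detection before and after cold. Isg15, a ubiquitin-like protein that is among the most strongly induced interferon targets, had 0, 1, 1 and 0 counts in control libraries and 0 counts in all 4 cold libraries. A count of 0 allows up to 3 counts in a library, so no difference in Isg15 was detectable at this depth. Dhx58, a regulator of RNA sensing, had 3, 0, 2 and 0 counts in control and 1, 0, 0 and 1 in cold libraries. Ifit2, an interferon-induced RNA-binding protein, had 2, 6, 4 and 5 counts in control and 1, 2, 3 and 3 in cold libraries. Isg15, Dhx58 and Ifit2 did not pass the filter on low counts, and these limits cover counting error only.

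Ifih1, the long double-stranded RNA sensor MDA5, had 4, 6, 15 and 10 counts in control libraries (0.05, 0.07, 0.220 and 0.130 TPM) and 10, 12, 12 and 16 counts in cold libraries (0.170, 0.180, 0.180 and 0.210 TPM). Its cold values fell within a narrow range, its control values did not, and the groups overlapped. The log2 fold change of 0.49 was the largest of the members in the blocked test, with a SE of 0.33 and an adjusted p of 0.482 with edgeR. In edgeR without the block it was 0.25 without control replicate 1, where that of Irf7 was larger, and 0.88 without control replicate 3. In replicates 3 and 4 alone it was 0.15, against 0.52 for Irf7.

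The antigen presentation genes were led by B2m, the light chain of the class I major histocompatibility complex. B2m was at 101, 101, 93.8 and 98.3 TPM in control and at 92.5, 94.5, 90.1 and 88.4 TPM in cold libraries. All 4 pairs had the lower value in the cold library, and the highest cold value was just above the lowest control value. The log2 fold change was −0.12 (SE 0.065, adjusted p = 0.862) with edgeR and −0.12 (SE 0.050, adjusted p = 0.197) in the blocked test. Tap1 and Tap2, the subunits of the peptide transporter that loads class I molecules, were scarce, at 0.885 ± 0.153 and 0.328 ± 0.257 TPM at 37°C and 0.980 ± 0.197 and 0.325 ± 0.200 TPM at 4°C (SD, n = 4 each). Neither Tap gene differed between conditions by more than the spread between replicates.

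The NF-kappaB subunits were all expressed and differed little between conditions. Rela, the main activating subunit, was at 44.0, 41.1, 54.1 and 47.8 TPM in control and at 40.1, 43.2, 53.2 and 47.7 TPM in cold libraries, with replicate 3 the highest in both. Its log2 fold change was −0.031 (SE 0.047, adjusted p = 0.794 in the blocked edgeR test). Nfkb1 and Nfkb2, the precursors of the p50 and p52 subunits, averaged 22.8 ± 2.38 and 35.6 ± 4.77 TPM at 37°C and 24.1 ± 0.901 and 34.9 ± 7.06 TPM at 4°C (SD, n = 4 each). Relb, which pairs with p52, averaged 5.03 ± 0.415 TPM at 37°C and 5.38 ± 0.768 TPM at 4°C (SD, n = 4 each). In an edgeR fit of replicates 1 and 2 alone, Nfkb2 was called lower, with a log2 fold change of −0.20 (SE 0.060, adjusted p = 0.0358). That fit called 853 genes lower and 589 higher in all. In replicates 3 and 4 alone the value for Nfkb2 was 0.071 (adjusted p = 0.997), and the difference between these fits was not tested.

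Nfkbia, which encodes the inhibitor IkappaB-alpha and is itself switched on by NF-kappaB, was at 6.93, 7.39, 9.69 and 9.83 TPM in control and at 9.0, 11.04, 11.3 and 10.1 TPM in cold libraries. It was higher in the cold in 4 of 4 pairs, and the groups overlapped because control replicates 3 and 4 exceeded cold replicate 1. Its log2 fold change was 0.28 (SE 0.13, adjusted p = 0.764) with edgeR and 0.28 (SE 0.10, adjusted p = 0.131) in the blocked test. Tnfaip3, which encodes the deubiquitinase A20, a further feedback inhibitor of NF-kappaB, was at 1.26, 1.39, 0.910 and 1.16 TPM in control and at 1.73, 2.21, 0.890 and 1.00 TPM in cold libraries. The cold value was higher in pairs 1 and 2 and lower in pairs 3 and 4, and the log2 fold change was 0.25 (SE 0.15, adjusted p = 0.405 in the blocked edgeR test).

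Among the members that encode cytokines, Csf1, the growth factor of macrophages, stood far above the rest. Outside the members, the cytokine gene Mif was higher, averaging 747 TPM at 37°C and 759 TPM at 4°C. Csf1 was at 297, 302, 458 and 443 TPM in control and at 321, 332, 441 and 442 TPM in cold libraries. Replicates 3 and 4 were high in both groups, and the log2 fold change between conditions was 0.031 (SE 0.034, adjusted p = 0.689 in the blocked edgeR test), with a 95% interval of 0.973-fold to 1.07-fold. Il6st, the receptor chain gp130 shared by the interleukin 6 family, averaged 33.2 ± 2.23 TPM at 37°C and 35.3 ± 0.877 TPM at 4°C (SD, n = 4 each).

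Il6, a cytokine released by injured and contracting muscle, was close to absent, with 0, 0, 2 and 2 counts in control and 5, 1, 1 and 1 counts in cold libraries. It did not pass the filter, and no difference was detectable at this depth. Lif, a cytokine of the same family, was at 2.79, 3.38, 4.34 and 4.17 TPM in control and at 2.60, 2.79, 3.70 and 4.39 TPM in cold libraries. Cxcl12, a chemokine that attracts cells bearing Cxcr4, was at 2.56, 2.61, 2.12 and 3.30 TPM in control and at 2.50, 2.39, 1.58 and 2.64 TPM in cold libraries. Cxcl12 was lower in 4 of 4 pairs and had the lowest log2 fold change of the members in the blocked test, −0.23 (SE 0.12, adjusted p = 0.344 with edgeR), followed by Lif at −0.14. In edgeR without the block, leaving out cold replicate 3 gave −0.092 for Cxcl12, and Lif ran from −0.29 without cold replicate 4 to −0.035 without cold replicate 1. In replicates 1 and 2 alone the order differed, with −0.29 for Irf1, −0.26 for Lif, −0.24 for Socs3, −0.20 for Nfkb2, −0.15 for B2m and −0.14 for Cxcl12. Socs3, the feedback inhibitor of Stat3 signalling, averaged 2.08 ± 0.341 TPM at 37°C and 2.17 ± 0.513 TPM at 4°C (SD, n = 4 each).

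Ptgs2 and Icam1 are known targets of NF-kappaB. Ptgs2, the inducible cyclooxygenase that starts prostaglandin synthesis, was at 4.86, 4.45, 7.45 and 8.35 TPM in control and at 5.99, 8.40, 7.70 and 8.41 TPM in cold libraries. It was higher in the cold in 4 of 4 pairs, by most in pair 2 and by least in pair 4, and the groups overlapped. The log2 fold change was 0.27 (SE 0.19, adjusted p = 0.947) with edgeR and 0.28 (SE 0.10, adjusted p = 0.123) in the blocked test. Ptgs2 was called higher in the blocked edgeR test when pair 4 was left out (log2 fold change 0.37, adjusted p = 0.0403). It was also called higher in edgeR on replicates 1 and 2 alone (0.56, adjusted p = 0.00701). These fits called 319 and 589 genes higher in all. For Ptgs2 the adjusted p was 0.701 in the blocked test when pair 2 was left out. In replicates 3 and 4 alone it was 0.997, with a log2 fold change of 0.044. Icam1, an adhesion molecule that binds leukocytes, was at 31.2, 32.1, 61.9 and 59.5 TPM in control and at 33.5, 34.5, 65.1 and 61.0 TPM in cold libraries. It was higher in the cold in 4 of 4 pairs, with a log2 fold change of 0.064 (SE 0.043, adjusted p = 0.475 in the blocked edgeR test).

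**Figure D3:**
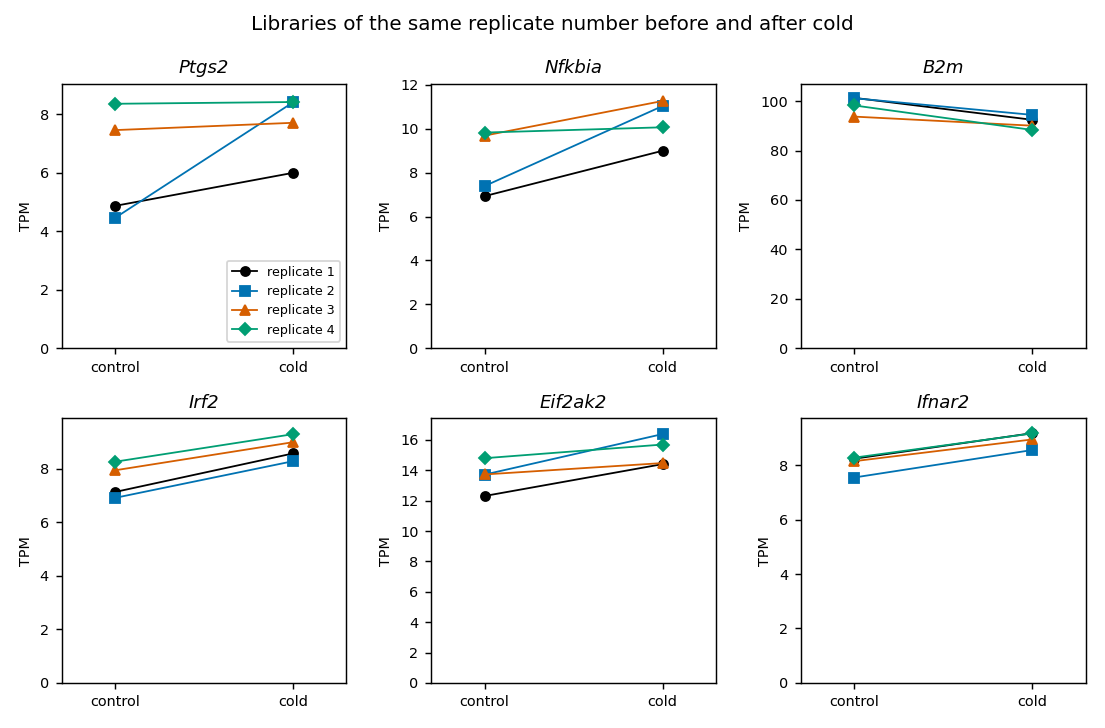
TPM (y axes from 0) of 6 genes in control and cold libraries, with a line joining libraries of the same replicate number. The 5 genes other than B2m have the higher value in the cold in each of the 4 lines and B2m the lower, and for Ptgs2 the line of replicate 2, from 4.45 to 8.40 TPM, is the steepest.

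Pair by pair, 9 of the 29 members (31%) were higher in the cold in 4 of 4 pairs, namely Ifnar2, Irf2, Irf3, Irf7, Adar, Eif2ak2, Nfkbia, Ptgs2 and Icam1, beside 12.8% of all genes tested. Lower in 4 of 4 pairs were B2m and Cxcl12, 2 of 29 (6.9%), beside 10.5% of all genes tested. None of these 11 genes was called by edgeR or DESeq2 over all 4 pairs, with or without the block. The difference between these shares was not tested, because the members were chosen with results of these data known.

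The replicate number went with larger differences than the condition in most members. When the spread of log2 TPM over the 8 libraries was divided into parts, the replicate number held a median of 61.7% of it in the 29 members and the condition 8.60%, beside 62.7% and 7.5% over the 12495 tested genes above 0 TPM in all libraries. Since the replicate number takes more values than the condition, it would tend to hold the larger share even where neither had an effect. The replicate number held 99.1% for Icam1, 96.9% for Csf1, 96.5% for Irf1 and 94.8% for Tap2, each of which was higher in replicates 3 and 4 than in replicates 1 and 2 of both groups. The condition held more than the replicate number in 7 of 29 members (24.1%), beside 15.6% of all genes, among them Ifnar2 (72.3%), B2m (64.3%), Adar (61.5%) and Irf2 (60.9%).

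Some markers of other cell types were high in the same libraries. Among them were all 4 macrophage and monocyte markers that passed the filter, of 16 with values, and 4 of 10 endothelial markers. SC and myoblast markers were mixed. Of these 13 markers, 4 (Myf5, Vcam1, Msc and Sdc4) were higher in replicates 3 and 4 than in replicates 1 and 2 of both groups. How many of all genes share this pattern was not counted, for these or the other marker lists. Myf5, an early myogenic factor, ranged from 99.8 to 103 TPM in replicates 1 and 2 and from 182 to 202 TPM in replicates 3 and 4 of the control group. Myog, a factor of myoblast differentiation, was at 1008, 1016, 449 and 479.8 TPM in control and at 564, 628, 314 and 292 TPM in cold libraries. Cd68, a lysosomal protein abundant in macrophages, was at 26.5, 23.6, 50.6 and 35.8 TPM in control and at 28.2, 23.3, 52.0 and 47.2 TPM in cold libraries. Cd14, a co-receptor for bacterial lipopolysaccharide, ranged from 15.0 to 43.0 TPM in control and from 17.7 to 49.0 TPM in cold libraries, with replicates 3 and 4 the highest in both. The summed macrophage and monocyte list was 60.5 to 130 TPM at 37°C and 56.8 to 131 TPM at 4°C. Its defining members Ptprc and Adgre1, the leukocyte marker CD45 and the macrophage marker F4/80, did not exceed 0.0300 TPM in any library. Dcn, a fibroblast proteoglycan, was at 128, 115, 201 and 229 TPM in control and at 132, 116, 200 and 211 TPM in cold libraries. Of the 10 fibroblast markers with values, 6 were higher in replicates 3 and 4 than in replicates 1 and 2 of both groups, and Col1a1, Col1a2, Pdgfrb and Clec3b were not. For Col1a2, a collagen chain, replicate 3 was the lowest in both groups, with 155 TPM at 37°C and 159 TPM at 4°C. None of the macrophage, endothelial or fibroblast markers was called between conditions with edgeR in either test, and their part in the levels of Icam1, Csf1, Irf1 and Tap2 was not tested. In bulk RNA a larger share of one cell type and more RNA per cell cannot be told apart.

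**Figure D4:**
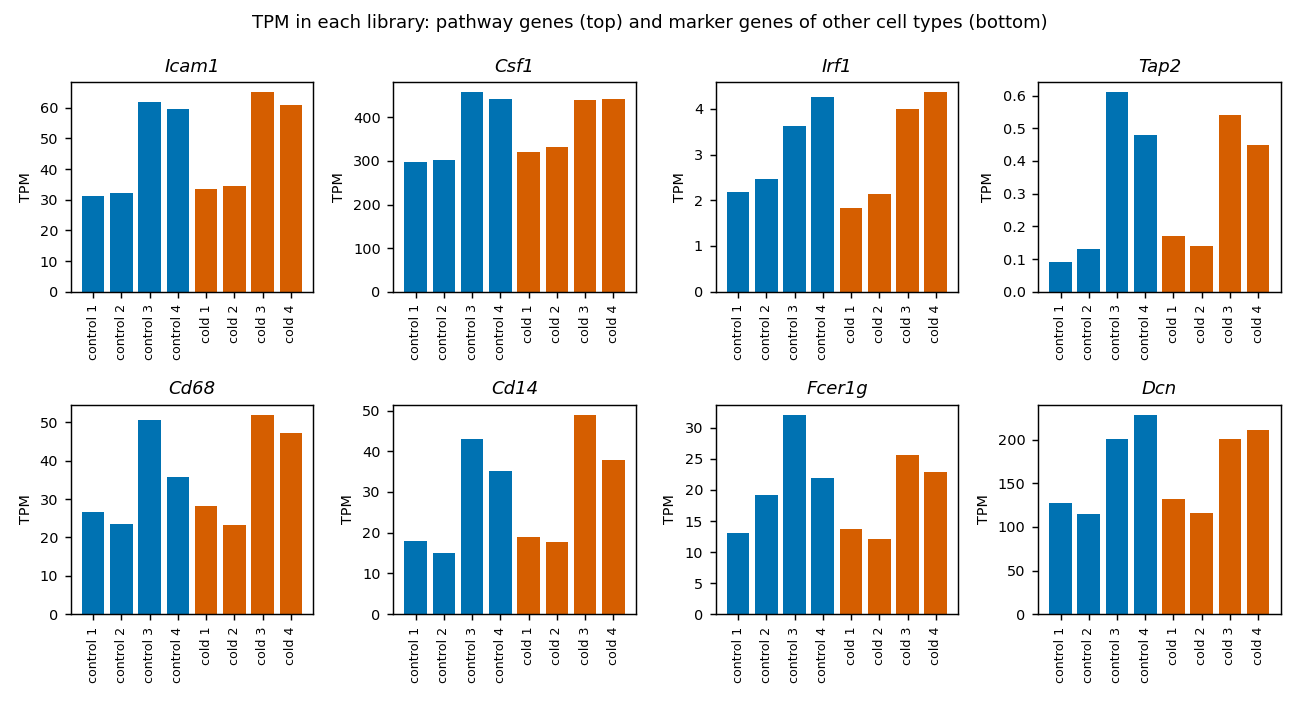
TPM in each of the 8 libraries (blue, control; orange, cold) for Icam1, Csf1, Irf1 and Tap2 and for the marker genes Cd68, Cd14, Fcer1g and Dcn. In each panel the bars of replicates 3 and 4 stand above those of replicates 1 and 2 within both groups, as for Icam1 at 61.9 and 59.5 against 31.2 and 32.1 TPM in control.

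Immediate early genes, which respond to many stimuli within minutes and share feedback regulators with NF-kappaB signalling, were read beside the members. Of 23 such genes tested, 0 were called with edgeR and 6 in the blocked test, where Fos, Egr1, Ier2, Zfp36 and Myc rose and Btg2 fell, beside 5.33% of all genes. When single pairs were left out of the blocked test, Fos, Egr1 and Ier2 remained called, while the adjusted p reached 0.395 for Zfp36, 0.194 for Btg2 and 0.0553 for Myc. DESeq2 with the block called 2 of these 6, Ier2 and Myc. Egr1 was at 5.71, 5.39, 2.84 and 2.98 TPM in control and at 34.7, 67.0, 2.55 and 2.77 TPM in cold libraries, so that it was high in cold replicates 1 and 2 and not in cold replicates 3 and 4. Fos was at 2.13, 2.21, 1.08 and 1.09 TPM in control and at 9.22, 18.9, 1.56 and 1.73 TPM in cold libraries, a log2 fold change of 2.11 (SE 0.25, adjusted p = 1.09e-05 in the blocked edgeR test and 0.576 without the block, and 0.114 with DESeq2 and the block). Zfp36, which destabilises cytokine mRNAs, reached 23.4 TPM in cold replicate 2, against 9.13 to 10.3 TPM in control libraries. Cold replicate 2 held the highest value of Egr1, Fos, Zfp36 and Tnfaip3, and the part of this early response in the values of Ptgs2, Nfkbia and Tnfaip3 was not tested. Nfkbia was at similar levels in cold replicates 2 and 3, with the largest difference from control in pair 2, and its adjusted p in the blocked edgeR test was 0.349, 0.548, 0.210 and 0.0668 without pairs 1, 2, 3 and 4.

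**Figure D5:**
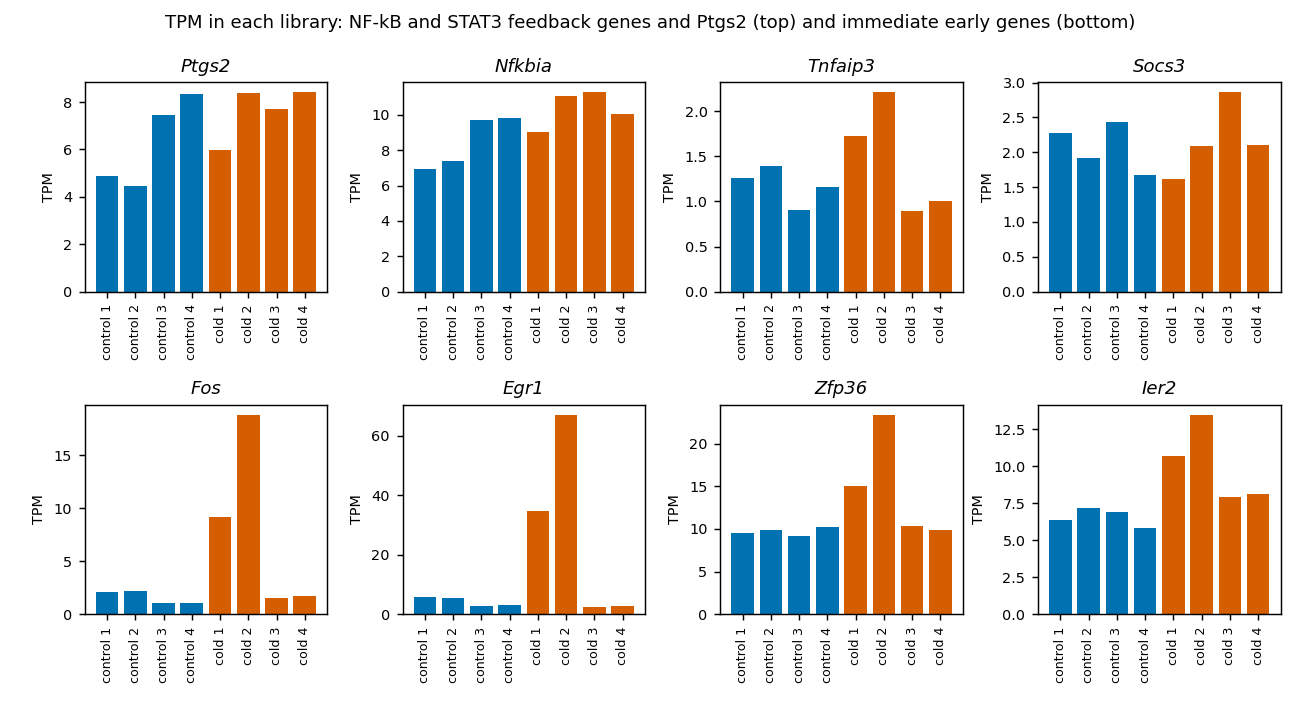
TPM in each of the 8 libraries (blue, control; orange, cold) for Ptgs2, Nfkbia, Tnfaip3 and Socs3 and for the immediate early genes Fos, Egr1, Zfp36 and Ier2. Egr1 reaches 34.7 and 67.0 TPM in cold replicates 1 and 2 and stays below 6 TPM in the other 6 libraries, while the bars of Ptgs2 and Tnfaip3 in cold replicates 1 and 2 exceed those of the controls of the same number.

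Other genes of the same pathways were read from lists of general knowledge. The further genes of interferon signalling were ligands, receptors, JAK, STAT and IRF genes and regulators such as the suppressors of cytokine signalling. Of these, 37 of 40 had values and 29 were tested. EdgeR called 0, and the blocked test called 1 higher and 1 lower, beside 5.33% of all genes called in that test. The higher one was Jak2, a kinase of the interferon gamma receptor, at 13.1, 12.9, 14.6 and 18.9 TPM in control and at 16.7, 16.1, 17.1 and 19.2 TPM in cold libraries (log2 fold change 0.21, SE 0.050, blocked adjusted p = 0.0179 with edgeR). The lower one was Socs4, a member of the suppressor of cytokine signalling family (log2 fold change −0.23, SE 0.064, blocked adjusted p = 0.0423 with edgeR). With DESeq2 and the block neither was called, with adjusted p-values of 0.141 and 0.271, and each lost its call in the blocked edgeR test when single pairs were left out, with adjusted p-values of up to 0.145 and 0.179.

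Of 70 further interferon-stimulated genes, 45 had values and 29 were tested, and 0 were called with edgeR in either test, with a median log2 fold change of 0.025 in the blocked test. Among the genes of this list that did not pass the filter, Mx1 and Rsad2, both classical interferon targets singled out after their values were seen, had at most 7 and 1 counts in a library. Of the 16 genes of this list below the filter, 2 had levels that did not overlap between groups, beside 1.04% of the 5084 genes with values below the filter, which include genes at 0 in every library. Ube2l6, which encodes an enzyme that attaches Isg15 to proteins, had 13, 14, 7 and 11 counts in control and 1, 4, 4 and 4 counts in cold libraries. Epsti1, an interferon-responsive gene, had 2, 7, 6 and 1 counts in control and 11, 13, 8 and 13 counts in cold libraries. In edgeR without a filter beyond 1 count, neither was called, with a log2 fold change of −1.79 (SE 0.44, adjusted p = 0.269) for Ube2l6 and 1.42 (SE 0.50, adjusted p = 0.699) for Epsti1. None of the 29 tested genes of viral and bacterial sensing was called in either test. Of 35 tested genes of the NF-kappaB pathway, 0 were called with edgeR and 1 in the blocked test, Ier3, an early response target of NF-kappaB. Ier3 was at 28.6, 29.3, 39.0 and 36.2 TPM in control and at 34.0, 45.5, 40.7 and 40.8 TPM in cold libraries, with the largest difference in pair 2 (log2 fold change 0.27, SE 0.076, blocked adjusted p = 0.0488 with edgeR). Its adjusted p was 0.0533 with RLE factors in place of TMM and up to 0.458 when single pairs were left out of the blocked test. Of the 4 genes of the NF-kappaB list below the filter, Traf1, an adaptor of tumour necrosis factor receptors, had levels that did not overlap, with 0, 1, 1 and 1 counts in control and 2, 2, 5 and 5 counts in cold libraries. It was not called in edgeR without a filter beyond 1 count (adjusted p = 0.699). Of 82 further cytokine, chemokine and receptor genes, 61 had values, 31 were tested and 0 were called in either test. A further 25 of the 61 stayed at 3 counts or fewer in every library, among them Tnf and Ccl5, singled out after their values were seen, at 0 counts in all 8 libraries.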

How the data were processed

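Polyadenylated RNA of 8 SC libraries was sequenced by the authors as paired reads of 150 bases. HISAT and HISAT2 are named in the submitters' processing notes, and the counting program and genome build are not given in the sources used here. The deposited table holds, per gene and library, expected counts of reads (not normalized, 96.4% to 96.6% whole numbers), TPM values, which the authors scaled per library, and normalized counts, a signal that the authors obtained by multiplying the rounded-up count by one factor per library. The members' counts were whole numbers in all 8 libraries. All 17590 identifiers with values matched the RefSeq annotation of the hamster, used for names only. No sequence is shown, because no sequence table was used here.

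Counts, rounded to whole numbers, entered edgeR 4.0.16 under R 4.3.3 (filterByExpr, TMM, quasi-likelihood F test, cold against control, Benjamini-Hochberg adjustment over all genes tested). Standard errors were derived from F (the size of the log2 fold change over the root of F), and 95% intervals use the total degrees of freedom of the test. Single genes were compared by TPM in exact two-sided permutation tests with scipy 1.17.1, which did not pair the libraries. Alternatives were DESeq2 1.42.0, limma 3.58.1 on log2(TPM + pseudocount), other factors and filters, the replicate block, and left-out libraries. The scripts were tested on simulated data. Dividing spread used log2 TPM. Figures were drawn with matplotlib 3.10.9.

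Replicate numbers come from the titles. Deviations from the group mean correlated at 0.65, 0.68, 0.70 and 0.69 between libraries of the same number, across genes, which are not independent replicates. They correlated at 0.44 to 0.65 between replicates 1 and 2 or 3 and 4 of opposite conditions, and at −0.58 to −0.65 otherwise. The numbers were taken to pair the libraries. Within replicates 1 and 2 this check parted them little, with 0.62 and 0.65 for different numbers against 0.65 and 0.68 for the same number. Replicates of one group differed by more than sampling noise (chi-square per gene of 2.46 or more, near 1 for repeated sampling), so none was counted as a copy. The members, the lists and the tests were chosen with earlier results of these data known. Values in every library are given for the most abundant member of each role and for the 3 largest rises and falls in the blocked test. Values per library are also given for members with an unadjusted p under 0.05 in the blocked test or told apart by their pattern over libraries, chosen after the values were seen. From other lists, genes with a blocked adjusted p under 0.05 are named, and any others were chosen after their values were seen. The result of 1 gene that was to be named is not reported here. Lymphocyte and granulocyte markers had values for 3 of 13 genes, summing to at most 0.460 TPM.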

Additional observations from a re-analysis of the deposited data

Results flagged for a closer look

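Within the control and the cold group of each gene, the highest and lowest TPM were compared with the spread of the other libraries by Dixon's criterion. Of 65 groups tested, 1 held an isolated value, where chance gives about 1 in 20 groups, or 3.25. It was Il6 in cold replicate 1, at 0.560 TPM (5 counts), against 0.120 TPM (1 count) in each of the other 3 cold libraries.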

How the results depend on the processing

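No member passed the thresholds under the other normalizations and filters, DESeq2 or limma, each over all 8 libraries. The number of members called lower was 1 (Nfkb2) and the number called higher was 1 (Ptgs2) in replicates 1 and 2 alone, and leaving out libraries or pairs gave 0 to 1 higher, again Ptgs2, without pair 4 in the blocked fit. With the replicate block, which pairs the libraries, 0 members were called, and 509 genes were lower and 158 higher in all, against 9 and 0 without it. The numbers lower and higher were 137 and 5 with DESeq2, 320 and 37 with DESeq2 and the block, 853 and 589 in replicates 1 and 2 alone, and 48 and 2 in replicates 3 and 4 alone. The number lower was 14 with library totals, 25 without a filter beyond 1 count, and 4 both with a filter of a mean of 10 counts and with limma at each pseudocount. Leaving out libraries or pairs gave 0 to 608 lower and 0 to 319 higher, and without control replicate 3 these were 45 and 1. With the block and without pair 1, 2, 3 or 4, the numbers were 353, 340, 472 and 608 lower and 41, 16, 102 and 319 higher. The number of members without overlap in TPM was 2, or 3 with the deposited normalized counts, and 2 to 5 when single libraries were left out (4 without control replicate 3 or cold replicate 2, 5 without control replicate 4). The share of all genes was counted only for TPM over all 8 libraries (4.68%). With fewer libraries, groups are more readily free of overlap by design, so the larger counts have no background beside them.

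Of 747 log2 fold changes of single members under these settings, 57 had the opposite sign to the unblocked value, none of them called. In replicates 3 and 4 alone the values were 0.011 for Ifnar1, −0.094 for Stat2, 0.11 for Irf1, −0.012 for Tap2, −0.0091 for Nfkb1, 0.071 for Nfkb2, 0.0073 for Rela, −0.12 for Tnfaip3 and −0.011 for Csf1. In replicates 1 and 2 alone they were −0.031 for Relb and −0.24 for Socs3. With limma on log2 TPM and pseudocounts of 0.1, 1 and 0.01 they were 0.0036, 0.0034 and 0.0036 for Ifnar1 and 0.0037 each for Stat3. With libraries or pairs left out, they ran from −0.062 to 0.019 for Ifnar1, −0.056 to 0.14 for Stat2, −0.051 to 0.015 for Stat3, −0.25 to 0.15 for Irf1, −0.17 to 0.68 for Tap2, −0.15 to 0.026 for Nfkb2, −0.10 to 0.031 for Rela, −0.013 to 0.45 for Tnfaip3, −0.062 to 0.12 for Csf1, −0.12 to 0.21 for Socs3 and −0.095 to 0.21 for Icam1. With the block, they were 0.0089 for Ifnar1, −0.042 for Stat2, 0.0093 for Irf1 and 0.014 for Rela without pair 1, 0.017 for Irf1 and 0.0083 for Nfkb2 without pair 2, and −0.047 and −0.063 for Socs3 without pairs 3 and 4. The causes were not tested. The median over the members stayed between 0.021 and 0.12. The fits with other factors and the block were added after seeing the data. Counts of 23 or fewer per library limit what can be said of Ifih1, Irf7 and Tap2.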
